A study of Homo sapiens with 4 samples.

Results

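DREAM, MMB and FOXM1 form one cell cycle switch, and the genes described here are 7 of its components, chosen by symbol: MYBL2, FOXM1, LIN9, LIN37, LIN52, LIN54 and RBL2. Of these, 4 (MYBL2, FOXM1, LIN9 and LIN52) were among the 6828 genes of the deposited table and all 4 passed the filter on low values, whereas LIN37, LIN54 and RBL2 had no row and were not analysed here. The values came from RNA-seq of A549, a human lung adenocarcinoma cell line, with 2 libraries for each of 2 lentiviral shRNAs. One group received a control shRNA (shctrl) and the other an shRNA against the long non-coding RNA USP2-AS1 (shUSP2-AS1), both cloned in pLKO.1, and RNA was taken at 72 h. Only 1 cell line was used, and which USP2-AS1 shRNA gave these libraries is not given in the sources used here. The comparison asked which transcripts differ in level after USP2-AS1 knockdown.

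The MuvB core, built from LIN9, LIN37, LIN52, LIN54 and RBBP4, changes partners through the cell cycle. In quiescent and early G1 cells it binds the pocket proteins p130 (encoded by RBL2) or p107 (RBL1) together with E2F4 or E2F5 and a DP protein, which makes the repressor complex DREAM. When cells enter S phase it binds the transcription factor B-MYB (MYBL2) to make the activator MMB, and in G2 it recruits FOXM1, a forkhead factor, to genes needed for mitosis. MuvB reaches many of these promoters through LIN54, which binds the CHR element, while E2F4 with its DP partner binds E2F elements.

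Each value below is a normalised read count, which is a read count divided by the size factor of its library. A gene was called lower or higher when limma on log2(value + 1) gave a Benjamini-Hochberg adjusted p below 0.05 over the 6812 genes tested and a log2 fold change of at least 1 in size. The table lists only genes that passed an adjusted p of 0.05 in the comparison of the submitters, so that 6811 of the 6812 genes tested (100% after rounding) also passed on p alone in the limma fit, and the calls rest on the fold threshold. By this rule 13.5% of the genes tested were called lower and 16.1% higher. Recovered reads over the listed genes ranged from 10772788 to 14120472 per library. USP2-AS1, the targeted RNA, was at 23.2 and 24.2 normalised counts under shctrl against 2.10 and 6.16 under shUSP2-AS1 (log2 fold change -2.39, SE 0.56, limma adjusted p = 5.97e-04). These values rest on 24 and 22 reads against 2 and 7, and the log2 fold change was -1.78 without shUSP2-AS1 replicate 1 and -2.99 without shUSP2-AS1 replicate 2. Of the epithelial markers 4 of 6 were listed, with a summed value of 168132 to 179244 in shctrl and 106336 to 112823 in shUSP2-AS1. KRT8, KRT18 and KRT7 carried that sum, and KRT19 went the other way, with 3699 and 3254 against 5689 and 5952 (log2 fold change 0.75). Fibroblast markers were listed for 2 of 6 genes (COL1A1 and LUM), with sums of 263 and 295 against 555 and 634, none of the blood or endothelial markers was listed, and the part of these shifts in the results below was not tested.

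All 4 genes with values fell in the shUSP2-AS1 libraries, none rose, and in each of them both shUSP2-AS1 libraries lay below both shctrl libraries. That separation was common in this table, since 49.3% of the genes tested showed it, and a call of lower was made for 13.5%. Of the 3362 genes tested with a log2 fold change below 0, 3361 showed it. In a table limited by p it therefore adds nothing to the direction of a change. The transcription factors that join MuvB in its activating forms, MYBL2 and FOXM1, kept 23.1% and 22.8% of their control level, and the core subunits LIN9 and LIN52 kept 37.3% and 48.0%. Because the cells were measured in bulk, fewer cells expressing a gene and less RNA per cell cannot be told apart here.

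MYBL2 (ENSG00000101057, chr20:43667019-43716495, plus strand, GRCh38) encodes B-MYB, the MYB factor that turns MuvB into an activator. Its normalised read counts were 2621 and 2788 in shctrl and 616 and 634 in shUSP2-AS1, so that the groups did not overlap and the libraries of each group lay close together. The mean went from 2705 ± 118 to 625 ± 12.5 (SD, n = 2), leaving 23.1% of the control level, a 4.33-fold lower value. On the log2(value + 1) scale the change was -2.11 (SE 0.06, 95% interval -2.24 to -1.98, limma adjusted p = 1.06e-14). Of the 6812 genes tested, 188 had a lower log2 fold change. Its GENCODE v44 canonical transcript has 14 exons.

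FOXM1 (ENSG00000111206, chr12:2857680-2877174, minus strand) encodes the forkhead factor that works with MMB in G2. Its normalised read counts were 1725 and 1812 in shctrl and 395 and 409 in shUSP2-AS1, again with no overlap. The mean fell from 1768 ± 61.8 to 402 ± 9.90 (SD, n = 2), leaving 22.8% of the control level. The log2 fold change was -2.13 (SE 0.07, 95% interval -2.28 to -1.98, limma adjusted p = 3.78e-14), and 180 genes had a lower one. The gene shares 782 exonic bases with ITFG2 on the opposite strand, which has no row, and since the strand setting of the counting is not given in the sources used here, reads in that stretch cannot be assigned to one of the pair. RHNO1, a checkpoint factor that starts head-to-head with FOXM1 and shares no exonic base with it, had 642 and 668 against 378 and 318 (log2 fold change -0.92, adjusted p = 1.06e-07), which is under the fold threshold.

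LIN9 (ENSG00000183814, chr1:226231149-226309869, minus strand) encodes the scaffold subunit of MuvB, through which B-MYB is bound. Its normalised read counts were 243 and 214 in shctrl and 75.7 and 95.1 in shUSP2-AS1, from 252, 195, 72 and 108 recovered reads, and the replicates were farther apart than those of MYBL2. The mean fell from 229 ± 20.6 to 85.4 ± 13.7 (SD, n = 2), leaving 37.3%. The log2 fold change was -1.42 (SE 0.16, 95% interval -1.76 to -1.08, limma adjusted p = 2.5e-07).

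LIN52 (ENSG00000205659, chr14:74084796-74201235, plus strand) encodes the subunit whose phosphorylation by DYRK1A directs MuvB to the pocket proteins. Its normalised read counts were 137 and 148 in shctrl and 69.4 and 67.8 in shUSP2-AS1, from 142, 135, 66 and 77 recovered reads. The mean fell from 143 ± 7.88 to 68.6 ± 1.14 (SD, n = 2), leaving 48.0%, and the log2 fold change of -1.05 (SE 0.17, 95% interval -1.41 to -0.68, limma adjusted p = 2.2e-05) lay close to the fold threshold, with 857 genes lower. Its interval includes -1. Its head-to-head neighbour ALDH6A1, a mitochondrial dehydrogenase gene, moved the other way, with 132 and 138 against 213 and 243 (log2 fold change 0.75, adjusted p = 6.2e-05), and was not called.

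**Figure D1:**
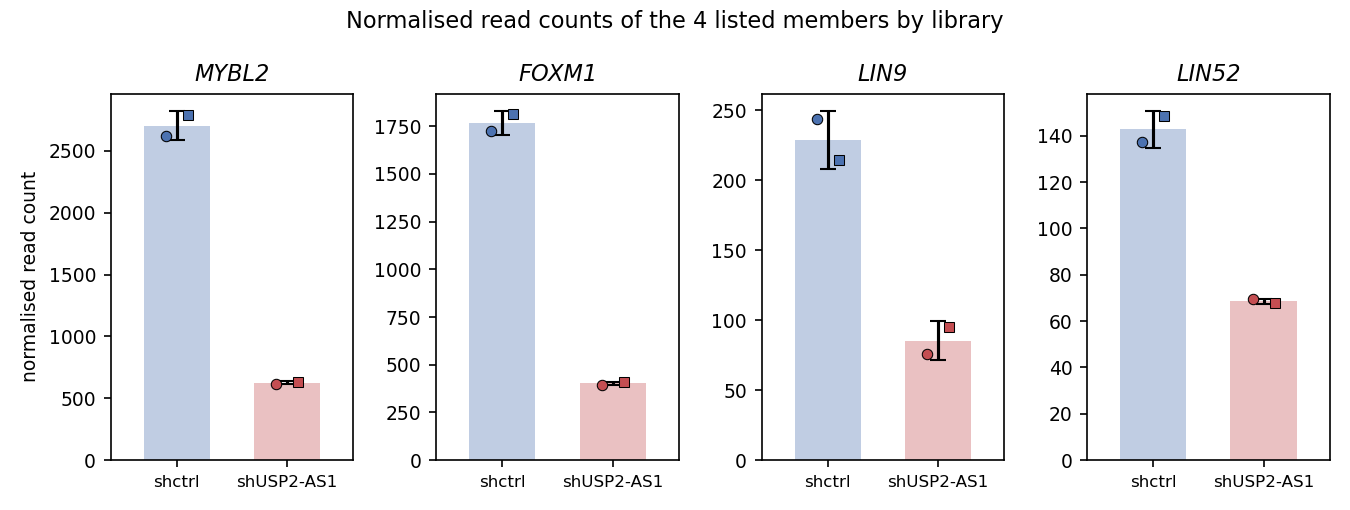
Normalised read count on the y axis (linear, from 0) for the 4 genes with values, with bars for the group mean, error bars for the SD, circles for replicate 1 and squares for replicate 2. Both shUSP2-AS1 libraries of MYBL2 (616 and 634) and of LIN52 (69.4 and 67.8) lay below both shctrl libraries, as did those of FOXM1 and LIN9.

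The promoter sequences of 3 of the 4 genes were matched by symbol to RefSeq windows of GRCh38.p14 (250 bases before to 50 after the start). The sequences are shown because MuvB reaches many promoters through CHR elements, while E2F4 with its DP partner, in DREAM, binds E2F elements. Letters are 5′ to 3′ on the strand of the gene, and the capitals mark matches to CHR (TTTGAA or TTCGAA), to E2F (TTTCCCGC, TTTGGCGC, TTTCGCGC, TTTGCCGC or TTCCCGCC), to the E2F core TCCCGCC and to CCAAT on either strand; E2F and core matches can overlap. The windows are MYBL2 at chr20:43666864-43667163 on the plus strand, LIN52 at chr14:74084706-74085005 on the plus strand and LIN9, the most downstream of its 3 RefSeq starts, at chr1:226309115-226309414 on the minus strand.
MYBL2: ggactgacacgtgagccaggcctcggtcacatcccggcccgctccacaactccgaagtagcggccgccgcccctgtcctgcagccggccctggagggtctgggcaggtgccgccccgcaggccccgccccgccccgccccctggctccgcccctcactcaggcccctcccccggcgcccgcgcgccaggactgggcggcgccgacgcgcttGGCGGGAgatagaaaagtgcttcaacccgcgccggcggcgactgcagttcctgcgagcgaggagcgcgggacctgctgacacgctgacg
LIN52: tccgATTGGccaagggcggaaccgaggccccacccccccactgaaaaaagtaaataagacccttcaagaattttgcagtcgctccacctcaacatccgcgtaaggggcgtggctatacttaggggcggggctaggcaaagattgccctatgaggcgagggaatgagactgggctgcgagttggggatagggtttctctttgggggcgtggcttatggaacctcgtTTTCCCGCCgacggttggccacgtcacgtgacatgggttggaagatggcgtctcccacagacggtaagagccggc
LIN9: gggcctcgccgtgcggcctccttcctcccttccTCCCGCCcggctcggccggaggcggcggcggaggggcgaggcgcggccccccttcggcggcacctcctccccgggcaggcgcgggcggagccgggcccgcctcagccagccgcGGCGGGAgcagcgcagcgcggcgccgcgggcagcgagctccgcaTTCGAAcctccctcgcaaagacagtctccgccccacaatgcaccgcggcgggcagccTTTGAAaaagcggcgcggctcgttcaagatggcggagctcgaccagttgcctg

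In the MYBL2 window the core E2F match lay on the other strand at positions -39 to -33, where 0 is the start base. The LIN52 window held 2 overlapping E2F matches between positions -25 and -17, and a CCAAT match on the other strand near its 5′ end. The LIN9 window held a CHR match at -60 to -55 and another at -3 to 2, along with core E2F matches at -217 to -211 and -104 to -98. The windows of the other 2 LIN9 starts held no CHR, E2F, core E2F or CCAAT match. No CHR match was found in the MYBL2 and LIN52 windows. Over all 35116 windows, 16.35% held a CHR match, 5.58% an E2F match and 15.4% a core E2F match, so that a match alone is not particular to these genes. The windows were rich in G and C (75.3% in MYBL2, 58.0% in LIN52 and 76.3% in LIN9). A match is a description of the letters and does not show binding.

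**Figure D2:**
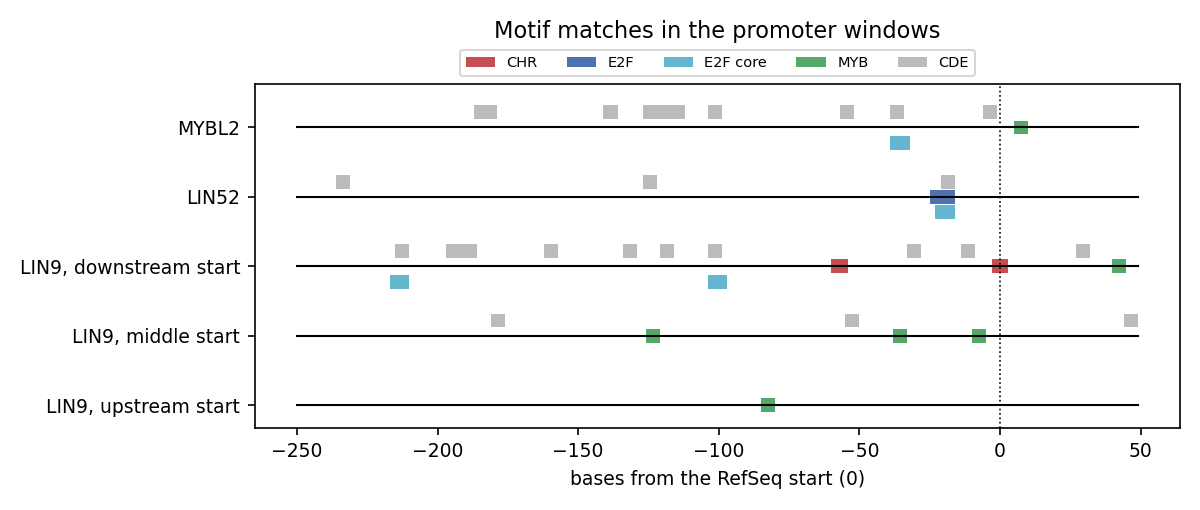
Position of motif matches (x axis, bases from the RefSeq start at 0) in the windows of MYBL2 and LIN52 and the 3 windows of LIN9, with 1 colour per motif; CDE is GGCGG and MYB is AACGG or AACTG. The 2 CHR matches of the downstream LIN9 start lie at -60 to -55 and -3 to 2, and the E2F matches of LIN52 lie just before its start.

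Per kilobase of the deposited gene length, the order in shctrl was MYBL2 (974 ± 42.4), FOXM1 (360 ± 12.6), LIN9 (51.5 ± 4.65) and LIN52 (38.7 ± 2.14) (SD, n = 2), and no neighbours overlapped. In shUSP2-AS1 the same order held for the first genes, at 225 ± 4.50 for MYBL2 and 81.8 ± 2.01 for FOXM1. LIN9 (17.0 and 21.4 per kb) and LIN52 (18.8 and 18.4 per kb) then overlapped. MYBL2 and FOXM1 thus lay above both core subunits in every library. On this length the core subunits were separated in the shctrl libraries and not in the shUSP2-AS1 libraries. The deposited lengths of LIN9 and LIN52 are 4442 and 3692 bases, against 2998 and 2874 in their GENCODE v44 canonical transcripts. Another length would shift each gene by its own factor, so the overlap in shUSP2-AS1 depends on the length used.

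The ratios between members compare the size of their changes within a library. The ratio of MYBL2 to LIN9 per kb was 17.2 and 20.8 in shctrl and 13.0 and 10.7 in shUSP2-AS1, with a difference of -0.68 on the log2 scale. FOXM1 to LIN9 was 6.40 and 7.64 against 4.72 and 3.89 (-0.71). By contrast, MYBL2 to FOXM1 was 2.69 and 2.73 against 2.76 and 2.74, a shift of 0.02 on the log2 scale. LIN52 to LIN9 was 0.678 and 0.833 against 1.10 and 0.858 (0.37). The exact permutation test of each ratio over the 4 libraries gave p = 0.333, two-sided, and an adjusted p of 0.333 over the 5 ratios, which is the smallest this design allows, so the ratios are described by their values. These ratios do not depend on the scaling of the libraries. The 95% intervals of the log2 fold changes of MYBL2 and FOXM1 lay wholly below that of LIN9 and that of LIN52, while the intervals of LIN9 and LIN52 overlapped.

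**Figure D3:**
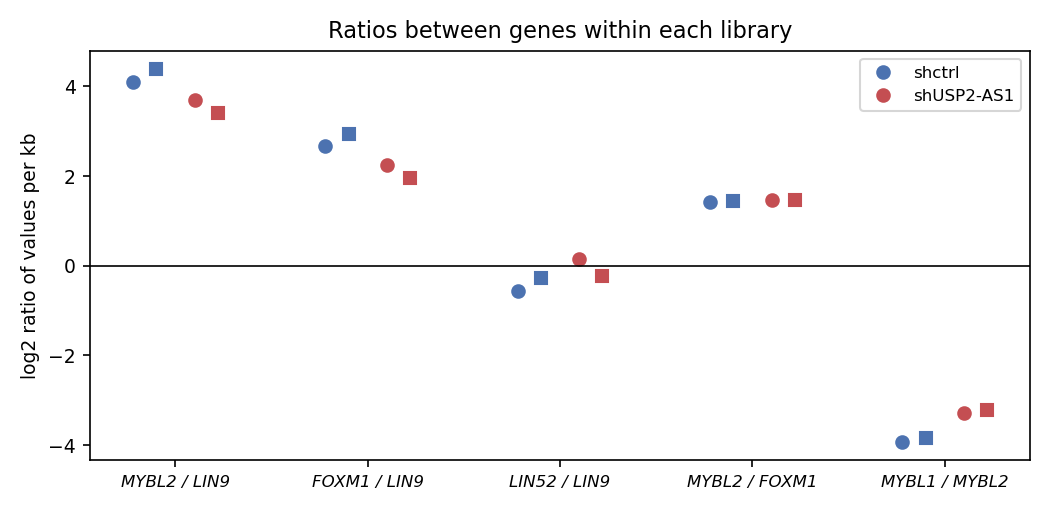
Log2 ratio of values per kilobase between pairs of genes (y axis) in each library, circles for replicate 1 and squares for replicate 2. MYBL2 to LIN9 lies lower in both shUSP2-AS1 libraries (13.0 and 10.7 as ratios) than in shctrl, and MYBL2 to FOXM1 lies between 2.69 and 2.76 in all 4 libraries.

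Among the other DREAM subunits, 4 of 6 were listed, with a median log2 fold change of -0.99, and E2F5 and TFDP1 were not. RBL1, which encodes p107, fell from 617 and 674 to 254 and 273 (log2 fold change -1.29, SE 0.10, adjusted p = 1.1e-09). TFDP2, a DP partner of E2F4, fell from 670 and 642 to 308 and 273 (-1.17, adjusted p = 3.36e-09). E2F4, with 1584 and 1619 against 926 and 997, had a log2 fold change of -0.74, and RBBP4, with 1562 and 1524 against 884 and 869, of -0.82, and neither passed the fold threshold. RBBP4 has processed copies elsewhere in the genome that could take part of its reads, which was not tested. These 4 changes were smaller in size than those of MYBL2 and FOXM1.

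The MYB family had a single other listed member. MYBL1, which encodes A-MYB, fell from 451 and 506 to 166 and 177 (log2 fold change -1.47, SE 0.11, adjusted p = 1.41e-09). The ratio of MYBL1 to MYBL2 per kb went from 0.0660 and 0.0695 to 0.103 and 0.107, a difference of 0.64 on the log2 scale, and MYBL2 was the higher of the pair in all 4 libraries. Of 43 other forkhead genes, 8 were listed, 1 of them called lower and none higher, against 13.5% and 16.1% of all genes tested. FOXA3, the one called lower, had a log2 fold change of -1.75, and the named others were FOXQ1 at -0.77, FOXK2 at -0.56, FOXO3 at 0.52 and FOXL2 at 0.66. FOXM1 had the lowest log2 fold change of the listed forkhead genes, although the 95% interval of FOXA3 overlapped its own and the difference was not tested.

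**Figure D4:**
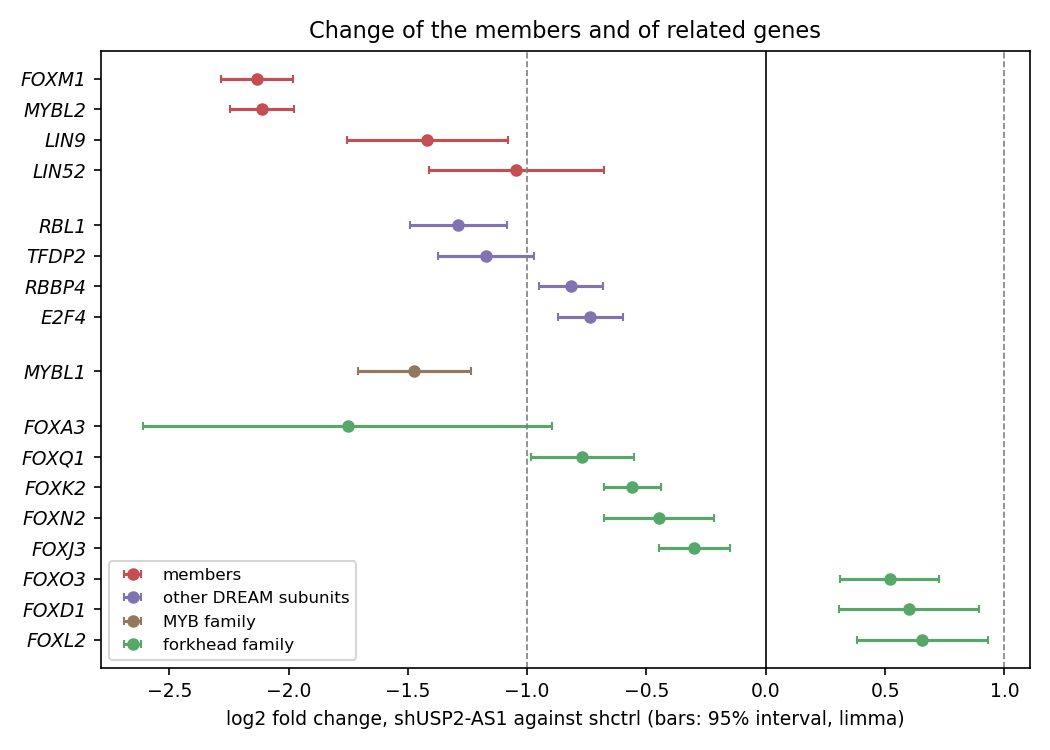
Log2 fold change in shUSP2-AS1 against shctrl (x axis) with its 95% interval from limma, for the members and for listed genes of the other DREAM subunits, MYB and forkhead families; dashed lines mark a fold change of 2. FOXM1 (-2.13) and MYBL2 (-2.11) lie lowest, and the interval of LIN52 crosses -1.

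The kinases and inhibitors that move MuvB between its partners were mostly below 0. Of 24 genes in that list 14 were tested, 5 were called lower, 1 higher and 8 were not called, against 13.5% lower and 16.1% higher over all genes tested. The log2 fold change was below 0 in 13 of the 14 (median -0.61), and CDKN1A was the exception. CDKN1A, which encodes the kinase inhibitor p21, rose from 7436 and 6989 to 20618 and 20765 (log2 fold change 1.52, SE 0.05, adjusted p = 2.5e-14). The cyclin gene CCNA2 (-2.42) and the kinase genes CDK1 (-2.40) and CDK2 (-2.03) fell.

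The genes that MMB and FOXM1 are known to activate in G2/M were mostly lower. Of 71 genes in that list 68 were tested, 66 were called lower and none higher, against 13.5% lower and 16.1% higher over all genes. The median was -2.24 (range -3.05 to -0.56), and over all genes tested it was 0.19. PLK1, the mitotic kinase, had 2964 and 2962 in shctrl and 511 and 536 in shUSP2-AS1 (-2.50), and TOP2A (-2.46), NCAPD2 (-2.45) and MKI67 (-2.39) were near it. CDC25B (-0.56) and BUB3 (-0.81) were below the fold threshold. The log2 fold change of 43 of these genes was lower than that of MYBL2, and the same number was lower than FOXM1.

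The G1/S genes that DREAM is known to repress had a similar count. Of 74 genes in that list 71 were tested, 66 were called lower and none higher, against 13.5% lower and 16.1% higher over all genes. The median of the list was -1.93 (range -3.02 to -0.58). The replicative helicase genes MCM5 (-2.72) and MCM7 (-2.71) and the nucleotide synthesis genes TK1 (-2.57) and RRM2 (-2.33) had the lowest p-values of this list. In this group 23 genes were lower than MYBL2 and 21 lower than FOXM1, and POLD2, POLD3, RPA1, RPA2 and RPA3 were not called. A total of 4 genes (CCNA2, CDK1, CCNE1 and CCNE2) stand in 2 of the 3 lists, and no set test was run.

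**Figure D5:**
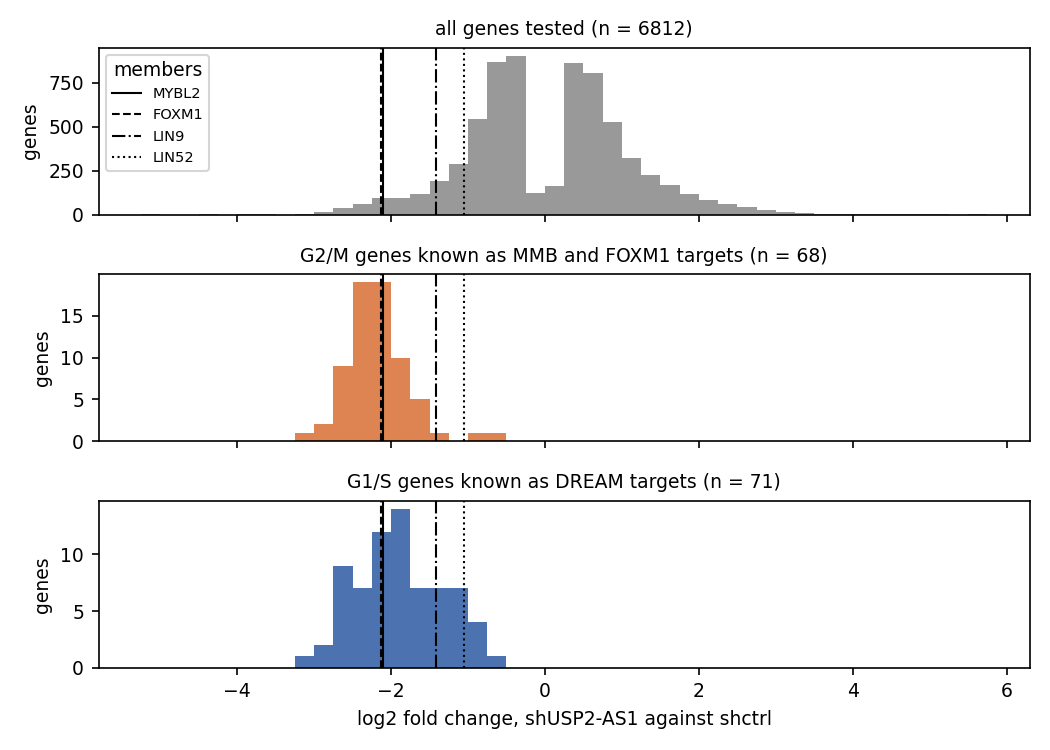
Number of genes (y axis) by log2 fold change in shUSP2-AS1 against shctrl (x axis, bins of 0.25) for all 6812 genes tested, the G2/M list (68 genes) and the G1/S list (71 genes), with black lines at the 4 members. The 2 lists lie wholly below 0, and MYBL2 (-2.11) and FOXM1 (-2.13) sit near the G2/M median of -2.24 while LIN52 (-1.05) lies to the right of most listed genes.

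Over the 4 libraries, the genes whose pattern was most like that of each member were found by distance on the log2 scale, centred on the shctrl mean, among 6042 genes. FOXM1 was the gene nearest to MYBL2, at a distance of 0.0338, and KIF11, a mitotic kinesin, was nearest to FOXM1 at 0.0328, just ahead of MYBL2. SEC23A, a coat protein of ER export, was second nearest to MYBL2 at 0.0380 (log2 fold change -2.09). For LIN9 they included RFC3 (0.0580), a clamp loader subunit, and DBF4 (0.0809), the activator of the CDC7 kinase. For LIN52 they were GEMIN5 (0.0196), C5orf51 (0.0273) and METTL16 (0.0355). By the same measure MYBL2 lay 1.02 from LIN9 and 1.51 from LIN52, and LIN9 lay 0.621 from LIN52. The distances rest on 4 libraries of 2 groups and say nothing of shared control.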

How the data were processed

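RNA was taken 72 h after infection, selected with poly-T beads and sequenced by Novogene, with 2 libraries per group. Per the labels, the processing notes of the submitters name HISAT2 2.0.5, featureCounts 1.5.0-p3, DESeq2 1.20.0 and hg38. The annotation release and the strand setting are not given in the sources used here. The authors deposited a normalised signal for each gene in each library, which is the gene's reads over the DESeq2 size factor of that library. The authors also deposited the log2 fold change and the p-value with its adjusted form that DESeq2 gave for the same groups, and these were not used as results. Column names differ from sample names, and the matching was inferred from the names. Columns with the prefix scr (read as scrambled) were taken as shctrl and those with the other prefix as shUSP2-AS1. The final number was taken as the replicate. The value of 1 read was recovered in each library (0.966 and 1.10 in shctrl, 1.05 and 0.880 in shUSP2-AS1), and 100% of values were whole reads within 0.01 read. The 6812 of 6828 genes whose mean value reached 10 were fitted by limma 3.58.1 (R 4.3.3) on log2(value + 1) with an intensity trend. Genes were called at an adjusted p below 0.05 and a log2 fold change of 1. edgeR 4.0.16 and DESeq2 1.42.0 were run on the recovered reads. The limma, edgeR and DESeq2 fits were checked on simulated reads in which most genes did not change, unlike the listed genes. The other tests and alternatives were not simulated. With 2 libraries per group, limma p-values and intervals rest partly on the spread between these libraries. The rest comes from a variance trend over the genes tested, which were themselves selected on p. DESeq2 with the deposited size factors gave larger standard errors, at 0.239 against 0.161 for LIN9 and 0.276 against 0.174 for LIN52. The members, gene lists and motifs were chosen with earlier results of these data known. The E2F core motif, a DESeq2 fit that kept the deposited size factors and 3 ratios (LIN52 to LIN9, MYBL2 to FOXM1, MYBL1 to MYBL2) were added after the data were seen. Named genes were all members and USP2-AS1, the other DREAM subunits and MYB genes, the 4 lowest p-values of each other list, any gene called against its list, and the 3 nearest patterns of each member. An item that this rule names is not reported here. Others were named after their values were seen: FOXA3, the neighbours of FOXM1 and LIN52, and genes not called in a target list.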

Additional observations from a re-analysis of the deposited data

How the results depend on the processing

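MYBL2 and FOXM1 were called lower under every alternative run, as was LIN9 except under the limma test against a fold change of 2. That test left 523 genes lower and 541 higher and 2 of the 4 members (MYBL2 and FOXM1; adjusted p = 0.0575 for LIN9 and 1 for LIN52). LIN52 passed 1 in size by a small margin. It reached -0.99 with upper quartile scaling and without shctrl replicate 2, and 3 members were then called lower. Without each library in turn, 3 to 4 members were called lower, with 882 to 955 genes lower and 1083 to 1101 higher. Over the alternatives the log2 fold change ranged from -2.23 to -2.05 for MYBL2, -2.25 to -2.07 for FOXM1, -1.58 to -1.26 for LIN9 and -1.17 to -0.99 for LIN52. Scaling by RLE moved the median of all genes by -0.12 and gave 1137 genes lower and 935 higher, against 922 and 1098. The direction of the members held under each scaling. The factors of these scalings were estimated only from the genes tested. Those were all selected on p in the comparison of the submitters, so the scalings are not a separate check of the normalisation. The edgeR test on recovered reads gave 940 lower and 1085 higher. With the replicate block, 922 genes were lower, 1098 higher and 4 members lower. The replicate differences of the groups correlated at -0.04, so no shared replicate effect was seen in these genes. Whether the libraries were prepared in pairs is not given in the sources used here. The planned ratios with LIN37, LIN54 and RBL2 were not run, since these genes have no row. Counts of 66 to 252 reads per library limit the precision for LIN9 and LIN52. Within 50 bases of the start, the E2F matches of LIN52, the core match of MYBL2 and the CHR match of LIN9 at -3 to 2 remained, and 5.01% of all windows held a CHR match there.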

Other observations

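Motif letters in promoter windows differed in frequency between genes called lower, higher and not called, given here as a description with no test. CHR matches were in 20.02% of 904 windows of genes called lower, 13.3% of 1110 windows of genes called higher and 10.4% of 5698 windows of genes tested and not called. E2F matches were in 16.2%, 3.78% and 7.81% of the same windows. CCAAT matches were in 46.5%, 31.4% and 33.9%. Core E2F matches were in 30.3%, 17.1% and 24.85%, MYB letters in 57.4%, 45.6% and 49.2%, and CDE letters in 86.4%, 69.0% and 84.05%. The forkhead letters TAAACA were in 5.86%, 10.5% and 7.14%, which is lowest in the genes called lower. A gene can have several windows, which overlap, and short motifs occur by base composition, whose part was not tested.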
